A study of Rattus norvegicus with 48 samples.

Results

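The miR-29 family was followed in the livers of 48 male Sprague-Dawley rats given thioacetamide (TAA), a compound that injures hepatocytes and causes liver fibrosis and tumors in rodents with long dosing. Members were taken by name, as every mature miRNA whose name begins with rno-miR-29a-, rno-miR-29b- or rno-miR-29c-. This gave 7 of the 664 mature miRNAs with at least 1 read, of which 5 were among the 301 abundant enough to be tested. TAA was given once daily at 4.5 mg/kg (low dose), 15 mg/kg (middle dose) or 45 mg/kg (high dose), and control rats received the vehicle alone. Dosing lasted for 3, 7, 14 or 28 days, written 3-d to 28-d, and rats were killed a day after the last dose, so there were 12 treatment conditions and 4 control groups, with the livers of 3 separate rats in each. Ages were not given in the sources used here. Each library was made from total RNA of a whole liver piece, in which fewer cells of a type and less of a miRNA per cell cannot be told apart.

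A miRNA is cut from a hairpin RNA. The guide strand is loaded into Argonaute and pairs, through its seed at bases 2 to 8, with matching sites in messenger RNAs, which are then repressed. The other arm of the hairpin, the passenger strand, is mostly degraded. The miR-29 guide strands are best known for repressing collagens, elastin, fibrillin and other matrix genes. In the liver they are made by hepatocytes and by hepatic stellate cells, the cells that deposit matrix in fibrosis, and transforming growth factor beta is known to lower them in stellate cells.

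The guide strands are shown here because their shared seed defines the family and their few other differences decide how well reads can be told apart. The seed is in capitals, and the RNA sequences and positions are those of RefSeq for the rat assembly GRCr8, in which all 7 members were found by name.
miR-29a-3p: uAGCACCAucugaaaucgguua
miR-29b-3p: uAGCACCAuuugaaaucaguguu
miR-29c-3p: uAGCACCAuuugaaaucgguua
No other of the 693 mature rat miRNAs in that table has this seed. With positions counted from 1 at the 5′ end, miR-29a-3p and miR-29c-3p differ by the single change C10U. miR-29a-3p and miR-29b-3p differ by 4 changes over 22 bases, C10U, G18A, U21G and A22U, and miR-29b-3p is 1 base longer. Counts of such near-identical miRNAs are uncertain, since the counting could split or share their reads.

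The guides come from 2 genomic clusters. The hairpins Mir29a and Mir29b1 lie on chromosome 4, with 291 bases between them, and miR-29a-3p occupies chr4:60617968-60617989 on the minus strand. Mir29b2 and Mir29c lie on chromosome 13 with 447 bases between them, and miR-29c-3p occupies chr13:109099412-109099433 on the plus strand. The mature miR-29b-3p is identical from both clusters (chr4:60618342-60618364 and chr13:109098882-109098904), so its reads cannot be assigned to either. In the deposited counts it is listed once for each of 3 annotated precursors with 15712, 16033 and 16033 reads, and the row with the most reads was used.
The passenger strands share no such seed, as their seeds in capitals show, and are printed to separate the arms of the hairpins.
miR-29a-5p: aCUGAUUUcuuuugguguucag
miR-29b-1-5p: uUUCAUAUggugguuuagauuu
miR-29b-5p: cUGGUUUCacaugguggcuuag
miR-29c-5p: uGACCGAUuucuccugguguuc

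Nearly all family reads were guide strands, and most of those were miR-29a-3p. It held 87.9% of the guide reads, miR-29c-3p 11% and miR-29b-3p 1.15%. Median levels over the 48 libraries, in RPM (counts scaled by the library total), were 2422 for rno-miR-29a-3p, 282 for rno-miR-29c-3p and 30.5 for rno-miR-29b-3p. Among the passengers the medians were 10.4 RPM for miR-29c-5p and 5.74 RPM for miR-29a-5p. miR-29b-5p had 0 to 18 reads per library and never reached 5 RPM, and miR-29b-1-5p had 1 read in 1 of the 48 libraries. Neither was tested.

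Library totals were between 4829217 and 14906217 counts, except for control 3-d replicate 1 with 293331. That library also stood apart in content. The summed level of 4 red blood cell miRNAs was 81096 normalized RPM there and between 2954 and 6781 in the other 11 controls, while 4 hepatocyte miRNAs summed to 103835 against 208790 to 285397. It held 272 reads of miR-29a-3p, 30 of miR-29c-3p and 2 of miR-29b-3p, the last below the limit of 3 counts that was taken as detection (10.2 RPM in this library, counting error only). Results with 3-d or with all controls are therefore also given without it where it changed a call or moved a value of a guide by much.

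Levels below are upper quartile normalized RPM. A differentially expressed miRNA (DEM) had a fold change above 1.5 and an unadjusted p-value below 0.05 in edgeR's quasi-likelihood F-test, the thresholds of the study, and the Benjamini-Hochberg adjusted p-value over all 301 tested miRNAs is given beside it. Log2 fold changes are treated minus control, with their standard errors (SE).

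In untreated livers all 3 guides were more abundant at the later time points. miR-29a-3p was at 767, 2505 and 1968 in the 3-d controls, 2442, 2592 and 2524 at 7-d, 3226, 3135 and 3372 at 14-d, then 3721, 4346 and 4094 in the 28-d controls. The groups after 3-d did not overlap and stood in order of time. miR-29c-3p was at 84.6, 241 and 227 in the 3-d group, 267, 291 and 263 at 7-d, 367, 359 and 393 at 14-d, then 488, 585 and 619 in the 28-d group. miR-29b-3p was at 5.64, 17.8 and 22.9 in the 3-d group, 18, 20.4 and 21.5 at 7-d, 28.7, 27.1 and 34 at 14-d, then 42.8, 49.5 and 55.5 in the 28-d group. For both of these as well, the control groups after 3-d did not overlap. How many of all tested miRNAs had control groups apart in this way was not counted, so the separation is given as a description.

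Against 3-d controls, the 28-d controls were 3.01-fold higher in miR-29c-3p (log2 difference 1.59, SE 0.32, adjusted p = 0.0175) and 2.75-fold higher in miR-29b-3p (1.46, SE 0.29, adjusted p = 0.0175), in a fit of the 12 controls. Of all tested miRNAs, 3.65% were higher at this cutoff in that contrast. miR-29a-3p was 2.32-fold higher (1.21, SE 0.34) with an adjusted p of 0.0501, on the other side of the threshold. Against 7-d controls, miR-29b-3p was 2.46-fold higher at 28-d (1.30, SE 0.28, adjusted p = 0.0422), the single miRNA called higher in that contrast (0.332%).

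Without control 3-d replicate 1 the spread among controls was smaller and all 3 guides passed in both contrasts. From 3-d to 28-d the log2 differences were then 0.86 for miR-29a-3p, 1.27 for miR-29b-3p and 1.27 for miR-29c-3p (adjusted p = 0.0015, 0.0015 and 0.000746, with 11.3% of all tested miRNAs called higher). From 7-d to 28-d they were 0.69, 1.30 and 1.04 (adjusted p = 0.00278, 0.000659 and 0.000659, with 10.6% called higher). The differences between 3-d and 7-d controls were not past the threshold in either fit. Rats of the 4 control groups differed in the number of vehicle doses, and their age at sampling cannot be told apart from it.

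**Figure D1:**
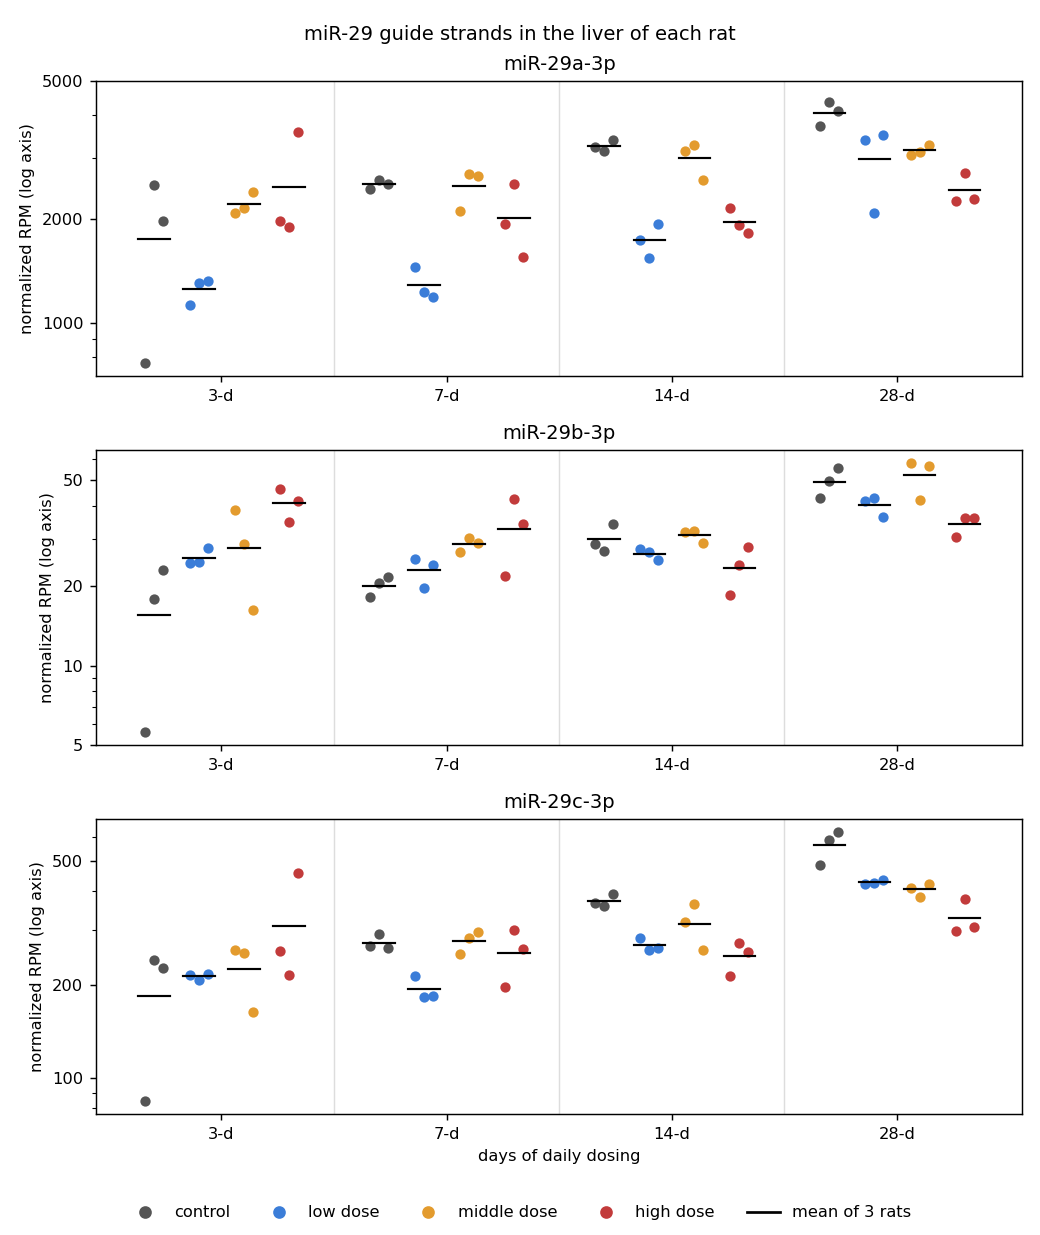
Level of each guide strand in each liver, in upper quartile normalized RPM on log axes, by days of dosing and dose. Points are rats and black lines are means of 3. Gray control points climb from 7-d to 28-d in all panels, blue low-dose points lie below the controls for miR-29a-3p at 7-d and 14-d, and the lowest gray point at 3-d is control 3-d replicate 1.

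miR-29a-3p, the dominant guide, was lower than in time-matched controls at the low dose at 7-d and 14-d and at the high dose at 14-d and 28-d. At the low dose the 3 rats had 1459, 1232 and 1190 at 7-d, all below the lowest 7-d control at 2442. The log2 fold change was -0.96 (SE 0.10, adjusted p = 0.000233), which is 1.95-fold lower. In this condition 10.6% of all tested miRNAs were lower DEMs and 22.9% had all 3 treated rats below the 3 controls. At 14-d the low-dose rats had 1740, 1543 and 1930 against 3135 or more in the controls, with a log2 fold change of -0.90 (SE 0.13, adjusted p = 0.000451). Here 9.63% of tested miRNAs were lower DEMs and 17.3% were wholly below the controls. In both conditions the summed level of 4 hepatocyte miRNAs was above each of the 11 controls other than control 3-d replicate 1 (296612 to 355005 and 348882 to 382506, against 285397 or less), and its part in the lower miR-29a-3p was not tested.

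At the high dose the calls were in the same direction, at 14-d and 28-d. At 14-d the rats had 2147, 1920 and 1828, a log2 fold change of -0.72 (SE 0.11, adjusted p = 0.013), in a condition where 3.65% of tested miRNAs were lower DEMs and 14% lay wholly below. At 28-d they had 2255, 2724 and 2287 against 3721 to 4346, a log2 fold change of -0.74 (SE 0.14, adjusted p = 0.0179), where the shares were 2.33% and 12.3%. Treated and control rats did not overlap in either condition. Of all tested miRNAs, 6.31% were lower DEMs in at least 4 of the 12 conditions, as miR-29a-3p was.

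The middle dose and the remaining high-dose and low-dose conditions gave no DEM. Middle-dose rats had 2116, 2699 and 2658 at 7-d and 3133, 3264 and 2597 at 14-d, overlapping the controls, with log2 fold changes of -0.02 (SE 0.10) and -0.11 (SE 0.12). At 28-d the middle-dose rats (3064, 3126 and 3268) were all below the controls with a log2 fold change of -0.36 (adjusted p = 0.0813), under the fold cutoff. Low-dose rats at 28-d were widely spread at 3379, 2082 and 3486, again all below the controls, with a log2 fold change of -0.44 (SE 0.24) that was not past the threshold. The shares of tested miRNAs wholly below the controls in these conditions were 19.6% and 17.6%. At the high dose at 7-d the values were 1936, 2531 and 1557 and the log2 fold change -0.33 (SE 0.20), also not past the threshold.

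At 3-d the result depended on the shallow control library. Low-dose rats had 1132, 1309 and 1323, above control replicate 1 and below the other controls. With all 3 controls the log2 fold change was -0.48 (SE 0.44, adjusted p = 0.546). Without replicate 1 it was -0.83 (SE 0.14, adjusted p = 0.0115), a lower DEM in a comparison with 10.3% lower DEMs, and miR-29a-3p was then lower in 5 of 12 conditions. With all libraries, 3.32% of tested miRNAs were lower DEMs in at least 5 conditions, and this share was not counted without replicate 1. Middle-dose rats (2085, 2157 and 2386) and high-dose rats (1973, 1900 and 3566) overlapped the controls at 3-d. Their log2 fold changes were 0.34 and 0.50 with all controls and -0.02 and 0.15 without replicate 1, none past the threshold. The median log2 fold change of all tested miRNAs was itself between 0.16 and 0.28 at 3-d with upper quartile scaling, and at most 0.14 in size at later time points.

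miR-29c-3p was called in the same direction as miR-29a-3p, with smaller fold changes at the low dose. The difference between members was not tested. It was a lower DEM at the high dose at 14-d, where the rats had 213, 272 and 256 against 359 to 393 in controls (log2 fold change -0.59, SE 0.14, adjusted p = 0.0785). It was also a lower DEM at 28-d, with 297, 377 and 308 against 488 to 619 (-0.79, SE 0.17, adjusted p = 0.0299). The 14-d call lies close to the fold cutoff and was lost with 4 of the 6 other scalings or fits tried, and without high-dose replicate 7 or control replicate 15 (-0.56 to -0.50 in these refits). Of all tested miRNAs, 17.9% were lower DEMs in at least 2 conditions.

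In 3 further conditions miR-29c-3p was below the controls in every rat with an adjusted p below 0.05 but a change under 1.5-fold. At the low dose the rats had 213, 183 and 184 at 7-d (log2 fold change -0.50, adjusted p = 0.00634) and 283, 258 and 263 at 14-d (-0.48, adjusted p = 0.0225). At the middle dose they had 410, 384 and 423 at 28-d (-0.48, adjusted p = 0.0474). Low-dose rats at 28-d (423, 425 and 436) also lay wholly below the controls with a log2 fold change of -0.40, without passing. In the other 6 conditions the treated and control ranges overlapped, with log2 fold changes from -0.25 to 0.74. The highest of these, at the high dose at 3-d with 257, 215 and 459, was 0.41 without control replicate 1. At the same time the low and middle doses were at -0.13 and -0.055 without it, on the other side of 0 from their values with it.

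miR-29b-3p, the least abundant guide, was never a lower DEM and was a higher DEM in 2 conditions. At the high dose at 3-d the rats had 46.1, 34.8 and 41.7 against 22.9 or less in the controls (log2 fold change 1.27, SE 0.47, adjusted p = 0.400). Without control replicate 1 the log2 fold change was 1.00 (SE 0.30, adjusted p = 0.357) and the call was kept (7.31% higher DEMs). At the high dose at 7-d they had 21.6, 42.5 and 34.1 against 21.5 or less (0.71, SE 0.26, adjusted p = 0.130). Higher DEMs were 6.98% and 17.9% of all tested miRNAs in these conditions, and 17.6% and 22.6% were wholly above the controls. Neither call passed after adjustment. The 3-d call was lost without control replicate 2 or either of high-dose replicates 22 and 24, and the 7-d call was lost in every one of the refits that left out a 7-d control rat or either of high-dose replicates 26 and 27.

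At the middle dose at 7-d, miR-29b-3p was at 26.8, 30.2 and 28.8, wholly above the controls, with a log2 fold change of 0.52 (SE 0.13, adjusted p = 0.016) that was under the fold cutoff (24.3% of tested miRNAs wholly above). Low-dose rats at 3-d (24.3, 24.5 and 27.7) also lay above the controls, by 0.56 (SE 0.39, adjusted p = 0.427, 28.6% wholly above), and by 0.32 without control replicate 1 (SE 0.18, adjusted p = 0.228). At 28-d the direction at the high dose was the opposite, with 30.6, 35.9 and 35.9 against 42.8 to 55.5 (-0.53, SE 0.17, adjusted p = 0.0909), under the fold cutoff. With DESeq2 the same change was -0.59 and a DEM. Low-dose rats at 28-d (41.8, 42.8 and 36.4) were the other group wholly below its controls, with a log2 fold change of -0.29 that did not pass. The remaining ranges overlapped, at 38.4, 28.6 and 16.2 at the middle dose at 3-d, 25.1, 19.6 and 23.8 at the low dose at 7-d, and 57.7, 42 and 56.4 at the middle dose at 28-d. At 14-d the low-dose rats had 27.4, 26.6 and 24.9, the middle-dose rats 31.7, 32 and 28.9, and the high-dose rats 18.5, 23.8 and 27.9, with none past the threshold.

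The passengers gave 0 DEMs in the 12 time-matched comparisons. Log2 fold changes ranged from -0.41 to 0.47 for miR-29a-5p and from -0.50 to 0.54 for miR-29c-5p. The median count was 57.5 for the former and 102.5 for the latter, so changes of the size seen in the guides would be measured with more counting error. Per library, the ratio of miR-29a-3p to miR-29a-5p reads was lower at the low dose than in controls at 3 time points. It was 219, 287 and 242 at 3-d against 534 and 316 (replicate 1 had no read of miR-29a-5p), 316, 387 and 234 at 7-d against 425 to 537, and 328, 291 and 334 at 14-d against 481 to 767. At 28-d the low-dose ratios of 497, 271 and 482 overlapped the control range of 436 to 533. High-dose ratios at 14-d (429, 298 and 323) were also below the controls. The remaining middle-dose and high-dose groups overlapped theirs.

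**Figure D2:**
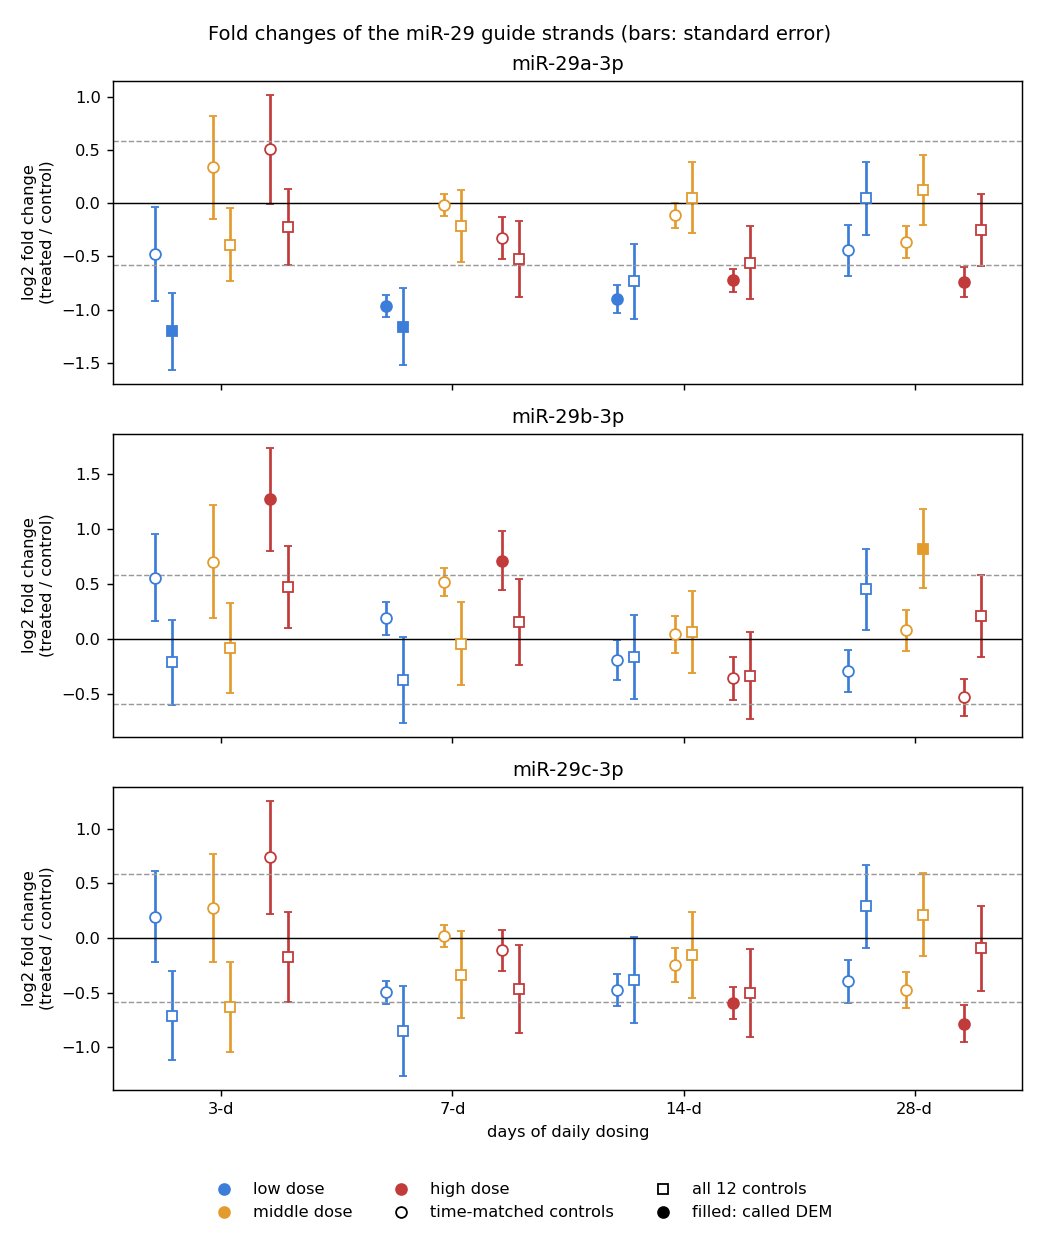
Log2 fold changes of the guide strands in the 12 treatment conditions against the 3 time-matched controls (circles) and against all 12 controls (squares). Bars are standard errors, dashed lines mark 1.5-fold and filled symbols are DEMs. miR-29a-3p circles are filled at 4 conditions and squares at 2, and bars are longer for the squares and at 3-d.

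The calls were not the same with pooled as with time-matched controls. Against all 12 controls, miR-29a-3p was a lower DEM in 2 conditions, the low dose at 3-d (log2 fold change -1.20, SE 0.36, adjusted p = 0.0298) and at 7-d (-1.16, SE 0.36, adjusted p = 0.0348). Lower DEMs were 7.97% and 11.6% of all tested miRNAs there. Across the 12 pooled comparisons, 14.3% of tested miRNAs were lower DEMs in at least 2. The low dose at 14-d had -0.73, the high dose -0.56 at 14-d and -0.26 at 28-d, none a DEM. miR-29c-3p gave no DEM, with log2 fold changes from -0.85 (low dose at 7-d) to 0.29 (low dose at 28-d). miR-29b-3p was a higher DEM in 1 condition, the middle dose at 28-d (0.82, SE 0.36, adjusted p = 0.137, 16.6% higher DEMs), a call lost in 6 of 15 refits without 1 library, those without control replicate 3, 4, 5 or 6 or middle-dose replicate 37 or 39. No treated group of any guide lay wholly outside the range of the 12 controls, whose lower end for miR-29a-3p and miR-29c-3p was the shallow library. Without it, the other 11 controls began at 1968 and 227. Then miR-29a-3p lay wholly below them at the low dose at 3-d (1132 to 1323), 7-d (1190 to 1459) and 14-d (1543 to 1930), and miR-29c-3p at the low dose at 3-d (208 to 217) and 7-d (183 to 213). Of tested miRNAs, 12.3%, 15.3% and 5.65% lay wholly below the 11 controls in these conditions, in order of time. The comparisons at a time point share their controls, and all 12 pooled comparisons share theirs, so calls within either set are not independent.

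Leaving out control 3-d replicate 1 from the pooled controls raised the number of lower miR-29a-3p DEMs from 2 to 5. These were the low dose at each time before 28-d (log2 fold changes -1.30, -1.25 and -0.83, adjusted p = 0.000291, 0.000278 and 0.00564) and the high dose at 7-d and 14-d (-0.62 and -0.65, adjusted p = 0.046 and 0.476). Lower DEMs were then 10.6%, 15.9% and 7.64% of all tested miRNAs at the low dose and 7.31% and 0.664% at the high dose. The share of tested miRNAs lower in at least 5 pooled comparisons was 1.33% with that library and was not counted without it. miR-29c-3p became a lower DEM in 3 conditions, the low dose at 3-d and 7-d (-0.80 and -0.94, adjusted p = 0.0381 and 0.0175) and the middle dose at 3-d (-0.73, adjusted p = 0.171), where it was the single lower DEM (0.332%). miR-29b-3p kept its single higher DEM (17.3% higher DEMs). The low dose at 7-d was the single condition in which miR-29a-3p was a lower DEM with time-matched and with pooled controls, with and without the shallow library. At 28-d, where the time-matched controls were at their highest, no guide was a lower DEM against pooled controls in either fit.

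Averaged over the 4 time points, each against its own controls in a single fit of all 48 libraries, miR-29a-3p was lowest relative to controls at the low dose. The average log2 fold change was -0.70 (SE 0.12, adjusted p = 1.89e-05), which is 1.62-fold lower, and 21.3% of tested miRNAs were lower at this cutoff. For miR-29c-3p it was -0.30 (SE 0.12, adjusted p = 0.0299). For miR-29b-3p it was 0.05, with a 95% interval from -0.18 to 0.29 that does not reach the interval of miR-29a-3p, -0.94 to -0.46.

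At the middle dose the averages were -0.04 for miR-29a-3p (95% interval -0.28 to 0.20), -0.12 for miR-29c-3p (-0.35 to 0.11) and 0.32 for miR-29b-3p (adjusted p = 0.0364, 23.3% of tested miRNAs higher). At the high dose miR-29a-3p averaged -0.32 (SE 0.12, adjusted p = 0.0444, 6.64% lower), miR-29c-3p -0.20 (adjusted p = 0.188) and miR-29b-3p 0.25 (adjusted p = 0.107). Of the 48 refits that left out 1 library each, 18 lost the high-dose average of miR-29a-3p, 12 the middle-dose average of miR-29b-3p and 3 the low-dose average of miR-29c-3p. No refit lost the low-dose average of miR-29a-3p. Without control 3-d replicate 1 the high-dose average of miR-29c-3p was past the threshold (-0.27, adjusted p = 0.0293, 7.64% lower), that of miR-29a-3p was -0.41 (adjusted p = 0.0014) and that of miR-29b-3p was 0.21 (adjusted p = 0.131). The high-dose averages combine positive values at 3-d with negative ones at all later times for miR-29a-3p and miR-29c-3p, and from 14-d on for miR-29b-3p. Without the 3-d time point, an alternative chosen after the data were seen, the high-dose averages were -0.60 for miR-29a-3p (adjusted p = 0.00321), -0.50 for miR-29c-3p (adjusted p = 0.0115) and -0.06 for miR-29b-3p, and 3.65% of tested miRNAs were lower. The low-dose average of miR-29a-3p was then -0.77 (adjusted p = 5.81e-05, 16.9% lower), and the middle-dose average of miR-29b-3p, 0.21, was no longer past the threshold (adjusted p = 0.229).

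**Figure D3:**
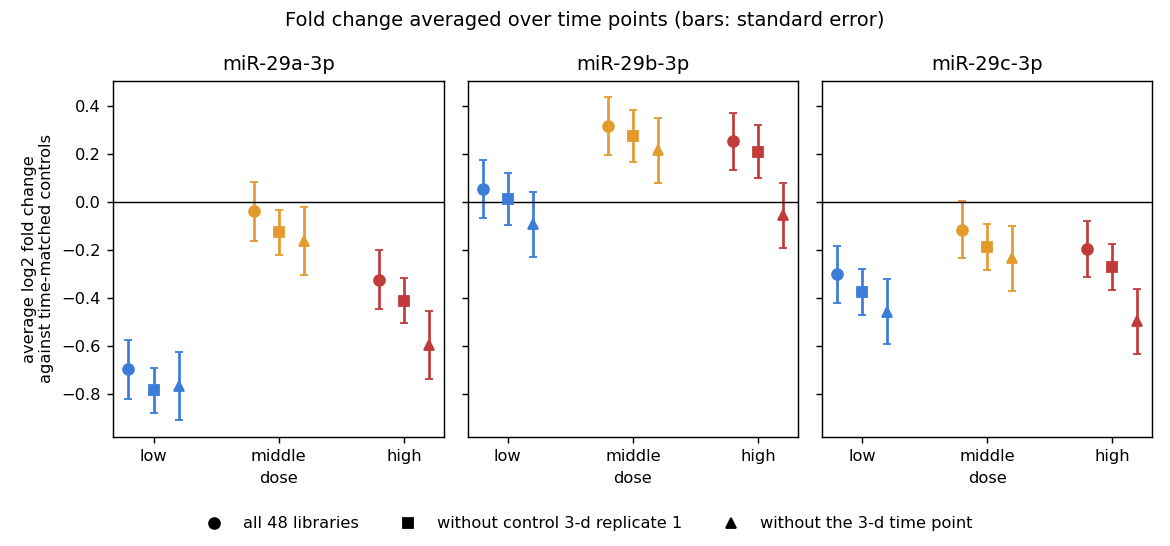
Log2 fold change of each guide strand against time-matched controls, averaged over time points, by dose. Circles use all 48 libraries, squares leave out control 3-d replicate 1 and triangles leave out the 3-d time point, and bars are standard errors. miR-29a-3p is lowest at the low dose (-0.70, -0.78 and -0.77 in the 3 fits), and the high-dose triangles of all guides lie below the circles.

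Fold changes of miR-29a-3p against time-matched controls did not follow the order of the doses at 7-d, 14-d or 28-d. At 3-d the fold changes of all 3 guides, with all controls, stood in the order low, middle and high dose. They were -0.48, 0.34 and 0.50 for miR-29a-3p, 0.56, 0.70 and 1.27 for miR-29b-3p, and 0.20, 0.28 and 0.74 for miR-29c-3p. Those of miR-29b-3p stood in this order at 7-d as well (0.19, 0.52 and 0.71). In each of these cases middle-dose and high-dose rats overlapped, and the high minus middle difference was not tested. For miR-29a-3p at 3-d, high-dose rats at 1900 and 1973 lay below every middle-dose rat (2085 or more). The other high-dose rat was at 3566. The response of miR-29a-3p was tested between doses at each time point, where the shared controls cancel. The middle dose lay above the low dose by 0.82 at 3-d, 0.95 at 7-d and 0.79 at 14-d on the log2 scale (SE 0.25 each, adjusted p = 0.0267, 0.00428 and 0.0197), with 6.64%, 13.6% and 7.97% of tested miRNAs higher in these contrasts. At 28-d the difference was 0.08 and not past the threshold. The high dose lay above the low dose by 0.98 at 3-d (adjusted p = 0.00835, 8.97% higher). At 7-d this difference was 0.63 (adjusted p = 0.101). At 14-d and 28-d the high and low doses differed by 0.18 (95% interval -0.30 to 0.66) and -0.30 (-0.78 to 0.18), so neither direction was shown. miR-29b-3p was also higher at the high than at the low dose at 3-d, by 0.68 (SE 0.24, adjusted p = 0.0496), and 39 of 48 refits without 1 library lost this call (adjusted p up to 0.196). The high minus low difference of miR-29a-3p at 3-d was 0.63 (adjusted p = 0.0708) without high-dose replicate 24. Its middle minus low differences were lost without middle-dose replicate 12 or low-dose replicate 43, 44 or 45 at 3-d (0.75 to 0.86), and without middle-dose replicate 31 or 32 or low-dose replicate 40 or 41 at 14-d (0.71 to 0.79). Dose differences of miR-29c-3p did not pass, the largest being 0.54 between high and low dose at 3-d (adjusted p = 0.142). Effects at 28-d were compared with those at 7-d within each dose, and none of the guides passed. The largest difference was that of miR-29b-3p at the high dose, -1.24 (SE 0.33, adjusted p = 0.0626).

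Without control 3-d replicate 1, which enters the single fit through its estimate of the spread, these values were nearly the same and more of them passed. The difference between effects of miR-29b-3p at the high dose was then past the threshold (adjusted p = 0.018, SE 0.30), with 2.33% of tested miRNAs lower. So were the high minus low differences of miR-29a-3p at 7-d (0.63, adjusted p = 0.0204, 10.6% higher) and of miR-29c-3p at 3-d (0.54, adjusted p = 0.0376, 12% higher), and the middle minus low difference of miR-29c-3p at 7-d (0.52, adjusted p = 0.0266, 19.3% higher). The differences that passed with all libraries passed here too.

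Ratios between guides within a library need no scaling between libraries, and they are given as a description. The ratio of miR-29a-3p to miR-29c-3p reads was 9.07, 10.4 and 8.68 in the 3-d controls, 9.16, 8.91 and 9.58 at 7-d, 8.79, 8.74 and 8.59 at 14-d, and 7.63, 7.42 and 6.61 at 28-d. At the low dose it was 5.25, 6.30 and 6.11 at 3-d, 6.84, 6.72 and 6.45 at 7-d, and 6.16, 5.98 and 7.34 at 14-d. All 9 of these libraries lay below all 9 control libraries of the same times. At 28-d the low-dose ratios, 7.99, 4.90 and 7.99, overlapped the controls. The middle-dose ratios had a median of 8.73 over 12 rats, beside 8.76 in the 12 controls, 7.64 at the high dose and 6.38 at the low dose.

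The ratio of miR-29a-3p to miR-29b-3p had a median of 114 in controls (73.7 to 141), 58.0 at the low dose (46.7 to 95.8), 84.2 at the middle dose (53.1 to 147) and 69.6 at the high dose (42.8 to 116). The control means were 121, 127, 109 and 82.8 in order of time, so the 28-d controls were also lower than the earlier ones. Low-dose ratios were below every time-matched control at 3-d (46.7, 53.4 and 47.7), at 7-d (58.1, 62.9 and 49.9) and at 14-d (63.5, 57.9 and 77.4). High-dose ratios were also below every time-matched control at 3-d (42.8, 54.5 and 85.5, with the lowest control at 85.8) and at 7-d (89.4, 59.5 and 45.7). So were middle-dose ratios at 7-d (78.9, 89.4 and 92.2), where the lowest control was at 118. The other treated groups overlapped their controls. The control ratio at 3-d includes replicate 1 with 136, which rests on 2 reads of miR-29b-3p. miR-29c-3p to miR-29b-3p had a median of 12.5 in controls (9.89 to 15.0), 9.52 at the low dose, 9.26 at the middle dose and 9.13 at the high dose, with the lowest values at the high dose at 3-d (5.57 and 6.17).

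**Figure D4:**
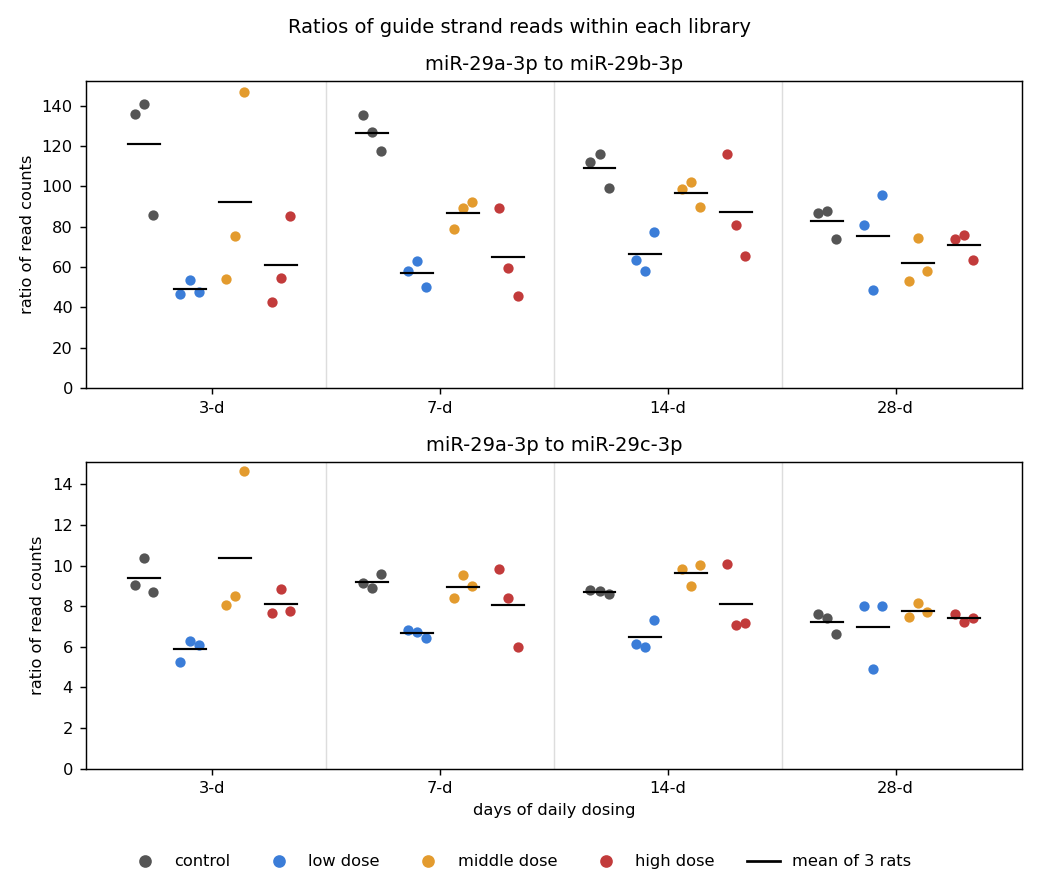
Ratio of miR-29a-3p reads to miR-29b-3p reads (upper panel) and to miR-29c-3p reads (lower panel) in each library, on linear axes from 0, by days of dosing and dose. Points are rats and black lines are means of 3. Blue low-dose points lie below the gray controls of the same time before 28-d in both panels and overlap them at 28-d.

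Set in order of mean level, the 16 groups ran for miR-29a-3p from the low dose at 3-d (1255 ± 107, SD, n = 3) and at 7-d (1293 ± 145) through the low dose at 14-d (1738 ± 194) up to the 14-d controls (3244 ± 119) and the 28-d controls (4054 ± 315). The span was 3.23-fold. Neighbours in this order had overlapping ranges in 13 of 15 pairs, and the pairs apart were the low dose at 7-d and 14-d, and the controls at 14-d and 28-d. For miR-29c-3p and miR-29b-3p the lowest group was the 3-d controls, with the shallow library, and the spans were 3.06-fold and 3.37-fold. In each of them 1 of 15 neighbouring pairs was apart.

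Across the 16 group means, miR-29a-3p and miR-29c-3p had a Pearson's r of 0.89, miR-29b-3p and miR-29c-3p of 0.84, and miR-29a-3p and miR-29b-3p of 0.67. These values are a description and carry no test, since the miRNAs compared were measured in the same libraries with the same scaling. The 3-d control mean includes the shallow library, and r was not computed without it. The tested miRNAs outside the family with the most similar pattern to miR-29a-3p were miR-145-3p (r = 0.89), miR-362-3p (0.83) and miR-128-3p (0.82). To miR-29b-3p they were miR-142-3p (0.92), miR-142-5p (0.89) and miR-32-5p (0.87), and to miR-29c-3p they were miR-338-3p (0.86), miR-145-3p (0.85) and miR-142-5p (0.84). The median r of all tested miRNAs with each guide was -0.05, 0.05 and -0.07. The miR-142 hairpin is a marker of blood-derived leukocytes. The summed level of 4 leukocyte miRNAs was 2435 to 5104 in controls, 1845 to 4519 at the low dose, 2344 to 5346 at the middle dose and 2255 to 4648 at the high dose, and its part in the pattern of miR-29b-3p was not tested.

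Other miRNAs linked to fibrosis were compared as lists with the time-matched controls. Of 16 miRNAs held to be antifibrotic like miR-29, such as the miR-30, miR-19, miR-101 and miR-200 members and miR-133a-3p, all were tested. Of these, 11 were a lower DEM in at least 1 condition and 5 a higher one, beside 33.9% and 51.5% of all tested miRNAs. None was a DEM in as many as 6 conditions, and the median of their median log2 fold changes was -0.09 beside 0.05 for all tested miRNAs. Of 16 miRNAs linked to activated stellate cells or to promoting fibrosis, 15 were tested, with 8 lower and 7 higher at least once and a median of 0.08. Here 2 were DEMs in 6 or more conditions, as 6.31% of all tested miRNAs were. miR-34a-5p, a p53 target, was higher in 12 of 12 with a median log2 fold change of 3.19, and miR-21-3p, the passenger of miR-21, was higher in 6 with a median of 0.87. The lists were drawn up with results of these data known and are no independent evidence of a direction.

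Summed levels of cell type markers, 18 miRNAs in all, were set beside the guides, leaving out the shallow library. The DEM counts of single markers come from the fits with time-matched controls, which include that library at 3-d. All 4 hepatocyte markers were present. Their summed level at the low dose was 290107 to 312490 at 3-d, 296612 to 355005 at 7-d and 348882 to 382506 at 14-d, above all 11 other controls (208790 to 285397). These are the low-dose times at which miR-29a-3p lay below the 11 controls. The sum weighs the most abundant markers most, and the 4 were not called alike against time-matched controls. Over the 12 conditions miR-122-3p was a lower DEM in 5 and never a higher one. miR-122-5p was lower in 1 and higher in 2, and miR-192-5p and miR-194-5p gave no DEM. At the high dose at 14-d, where miR-29a-3p was also a lower DEM, the hepatocyte sum was below its controls instead (203869 to 230721 against 239522 to 277207), and at the high dose at 28-d it overlapped them.

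The 4 leukocyte markers summed to less than in time-matched controls at the low dose at 7-d (1845 to 2829 against 2970 to 3477) and 14-d (2543 to 2743 against 3228 to 4321). Their sum was above that of the controls at the high dose at 3-d (3940 to 4174 against 2687 to 3585), where miR-29b-3p was a higher DEM. Singly, miR-150-5p was a lower DEM in 4 conditions and miR-223-3p in 2. miR-142-3p was a higher DEM in 1, and miR-142-5p gave none. For the 4 stellate cell or smooth muscle markers, the sum was 26361 to 47654 in the 11 controls. At the low dose it was above all of them at 3-d (49354 to 52722) and 14-d (49103 to 57393). It was below time-matched controls at the middle dose at 7-d and 14-d. Among these 4, miR-145-5p was a lower DEM in 4 conditions and never a higher one, and miR-143-3p gave no DEM. miR-199a-3p was lower in 1, and miR-214-3p was lower in 1 and higher in 3. The summed level of the 2 endothelium markers was above time-matched controls at 3-d at the low and high dose. It was below them at the low and middle dose at 14-d and 28-d. Neither of these markers was a DEM in any condition.

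The 4 red blood cell markers were each a lower DEM in 5 conditions, as 3.32% of all tested miRNAs were in at least 5. Their sum lay below time-matched controls at the middle and high dose at 7-d and at the middle dose at 14-d. Of the markers, miR-144-3p was a DEM in 6 conditions against time-matched controls, which holds for 6.31% of tested miRNAs. It was lower in 5, with log2 fold changes from -1.29 (middle dose at 14-d) to -0.91 (low dose at 14-d), and higher at the high dose at 3-d (1.25, adjusted p = 0.400). The 3-d fit includes the shallow library. All 4 stellate cell or smooth muscle markers are also in the list linked to activated stellate cells, and miR-122-5p and miR-150-5p are in the antifibrotic list as well as in a marker list. The part of these cells in the levels of miR-29 was not tested.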

How the data were processed

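Raw counts per mature miRNA and precursor were deposited for the 48 libraries. To make them, the authors removed adaptor sequence, discarded reads outside 18 to 25 bases, checked quality with FastQC, mapped to the rn5 genome and counted with miRDeep2 against miRBase release 21, with no normalization, filter or pooling of replicates. All libraries were sequenced as 1 pool, so no sequencing batch is known. The order of dissection, extraction and library preparation was not given in the sources used here. Each group holds consecutive replicate numbers. The low dose has 40 to 48 at 14-d, 3-d and 7-d, and 28 to 30 at 28-d. Any effect of an order behind these numbers cannot be told apart from dose and time. No per-sample column was left out. Depth was 293331 to 14906217 counts per library. Counts are of PCR-amplified reads, and limits of detection cover counting error only.

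Groups were taken from the dose and time labels. For a mature miRNA listed under several precursors, the row with the most reads was kept. A miRNA was tested if it reached 5 RPM in 3 or more libraries, which 301 did. Testing used edgeR 4.0.16 in R 4.3.3, its quasi-likelihood F-test and upper quartile scaling. Each condition was fitted with its 3 time-matched controls, and again with all 12 controls. Averages over time and differences between doses came from a single fit of 48 libraries, and control time points from a fit of the 12 controls. Standard errors were derived by dividing each log2 fold change by the root of its F value, and 95% intervals are 1.96 standard errors to each side. Where a miRNA varied less than Poisson counts, edgeR raises the p-value, which can then be larger than the standard error implies. Similar patterns were ranked by Pearson's r over 16 group means. The fits were tested on simulated counts.

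The text names all members, the 3 most similar miRNAs outside the family for each guide, and miRNAs of the fibrosis and marker lists that were DEMs in at least 6 of 12 conditions. Further miRNAs are named only as list members. Members and lists were chosen with earlier results of these data known. Alternatives were TMM, DESeq2's size factors (DESeq2 1.42.0), library size alone, no filter, the DESeq2 Wald test, a single fit, other cutoffs, summed precursor rows and each library left out.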

Additional observations from a re-analysis of the deposited data

Results flagged for a closer look

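Between doses at the same time point, 5 differences in the response of a guide strand passed an adjusted p-value of 0.05 in the contrasts of the single edgeR fit of 48 libraries. Relative to the low dose, miR-29a-3p was higher at the middle dose by 0.82 at 3-d (adjusted p = 0.0267), 0.95 at 7-d (adjusted p = 0.00428) and 0.79 at 14-d (adjusted p = 0.0197) on the log2 scale. It was higher at the high dose by 0.98 at 3-d (adjusted p = 0.00835), where 1 of the 3 high-dose rats, at 3566 normalized RPM, lay well above the other two. miR-29b-3p was higher at the high than at the low dose by 0.68 at 3-d (adjusted p = 0.0496), close to the threshold.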

How the results depend on the processing

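No paired analysis was possible because the replicate numbers run from 1 to 48 and no groups share a number. miR-29a-3p was a lower DEM against time-matched controls in 4 conditions, and in 3 to 5 under the alternatives and with 1 library left out. The values below changed more, and the cause was not tested. Counts of conditions with a DEM against time-matched controls changed from 0 to 1 for lower miR-29b-3p with DESeq2's size factors, no filter, the DESeq2 Wald test and any fold change. Higher miR-29b-3p changed from 2 to 1 with DESeq2's size factors, no filter and the DESeq2 Wald test and to 0 with adjusted p-values. Lower miR-29c-3p changed from 2 to 4 with no filter, to 1 with adjusted p-values and to 5 at any fold change, higher miR-29c-3p from 0 to 1 in the single fit, and lower miR-29c-5p from 0 to 1 at any fold change. Against all 12 controls, higher miR-29b-3p changed from 1 to 0 with no filter and with adjusted p-values, and lower miR-29c-3p from 0 to 2 with TMM, with DESeq2's size factors or Wald test and with library size alone, and to 1 with no filter. With 1 library left out these counts ranged from 0 to 1 (lower miR-29b-3p and miR-29c-5p) and from 1 to 2 (higher miR-29b-3p and lower miR-29c-3p) with time-matched controls, and from 2 to 5 (lower miR-29a-3p), 0 to 1 (higher miR-29b-3p) and 0 to 3 (lower miR-29c-3p) with all controls.

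With library size alone the dose averages were -0.013 for miR-29b-3p at the low dose, 0.10 for miR-29a-3p and 0.030 for miR-29c-3p at the middle dose, and -0.27 for miR-29a-3p (no longer past the threshold) and 0.32 for miR-29b-3p (now past it) at the high dose. With no filter miR-29b-3p averaged -0.036 at the low dose and 0.22 at the middle dose, the latter no longer past the threshold. Without the 3-d time point miR-29b-3p averaged -0.095 at the low dose, 0.21 at the middle dose (no longer past it) and -0.057 at the high dose, and miR-29c-3p averaged -0.50 at the high dose (now past it). With 1 library left out, averages ranged from -0.38 to -0.25 for miR-29c-3p at the low dose, -0.13 to 0.047 for miR-29a-3p and 0.24 to 0.39 for miR-29b-3p at the middle dose, and -0.41 to -0.24 for miR-29a-3p, 0.19 to 0.32 for miR-29b-3p and -0.30 to -0.14 for miR-29c-3p at the high dose.

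The values below changed sign. None was past the threshold with all libraries, and the 28-d minus 7-d difference of effects of miR-29b-3p at the high dose was past it without control 3-d replicate 1. Against time-matched controls miR-29c-3p at the low dose at 3-d was -0.016 with DESeq2's size factors, -0.0085 with library size alone and -0.046 in the DESeq2 Wald test. miR-29a-3p at the middle dose was 0.010 (TMM) and 0.084 (library size alone) at 7-d and 0.055 (library size alone) at 14-d. With no filter miR-29c-3p at the middle dose at 7-d was -0.060 and miR-29b-3p at the middle dose at 28-d was -0.063. Against all controls miR-29b-3p at the middle dose was 0.13 at 3-d and 0.17 at 7-d with library size alone and 0.11 at 7-d with no filter, where miR-29a-3p at 28-d was -0.0022. The high minus low difference at 14-d of miR-29c-3p was 0.047 with TMM, 0.060 with DESeq2's size factors, 0.24 with library size alone and 0.13 with no filter, and that of miR-29b-3p was 0.0062, 0.19 and 0.072 with the last 3. The middle minus low difference at 28-d was -0.073, -0.033 and -0.15 for miR-29a-3p with TMM, DESeq2's size factors and no filter, and 0.0047 for miR-29c-3p with library size alone. With all controls pooled, effects at 28-d minus 7-d were 0.82 for miR-29b-3p at the low dose, 0.34, 0.86 and 0.55 for miR-29a-3p, miR-29b-3p and miR-29c-3p at the middle dose and 0.27, 0.058 and 0.37 at the high dose.

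With 1 library left out, values against time-matched controls ranged from -0.13 to 0.43 (miR-29c-3p, low dose, 3-d), -0.018 to 0.69 and -0.055 to 0.51 (miR-29a-3p and miR-29c-3p, middle dose, 3-d), -0.078 to 0.088 and -0.032 to 0.082 (the same, 7-d), -0.26 to 0.037 (miR-29c-3p, high dose, 7-d), and -0.023 to 0.15 and -0.011 to 0.21 (miR-29b-3p, middle dose, 14-d and 28-d). Against all controls they ranged from -0.39 to 0.19 and -0.10 to 0.079 (miR-29b-3p, middle dose, 3-d and 7-d), -0.57 to 0.034 and -0.21 to 0.0087 (miR-29c-3p, high dose, 3-d and 28-d), -0.079 to 0.38 (miR-29b-3p, high dose, 7-d), -0.041 to 0.15 (miR-29a-3p, middle dose, 14-d) and -0.083 to 0.25 (miR-29a-3p, low dose, 28-d). Middle minus low differences ranged from -0.18 to 0.39 and -0.032 to 0.26 (miR-29b-3p and miR-29c-3p, 3-d) and -0.12 to 0.21 (miR-29a-3p, 28-d). In controls, miR-29b-3p at 7-d minus 3-d ranged from -0.026 to 0.43. The 28-d minus 3-d differences of miR-29b-3p and miR-29c-3p were lost without control replicate 17 or 18, and the 28-d minus 7-d difference of miR-29b-3p in 9 of 12 refits without 1 control (adjusted p up to 0.248), though in none without a 3-d rat.

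Depth limits the passenger strands and miR-29b-3p most, and with 3 rats a group small changes could not be seen.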
